A study of Fundulus heteroclitus with 5 samples.

Results

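The 10× and 50× arrays are 2 of the 5 cDNA arrays on which labeled heart RNA of the killifish Fundulus heteroclitus was hybridized at different concentrations, and they were taken by their titles. They received 10 and 50 times the RNA concentration usual for this array, which is a 5-fold step in RNA. The RNA came from cardiac tissue of fish kept in the laboratory for several months, was amplified with T7 RNA polymerase and carried Cy3 or Cy5. How many fish gave this RNA is not given in the sources used here. Both dyes of an array were taken to carry the same multiple of the usual concentration, as the column names and titles read. By the paper, the amount of Cy5 was set below that of Cy3 at every multiple. The methods, by contrast, describe a loop design for all experiments, in which samples are paired on arrays. The other 3 arrays, at 0.1×, 1× and 5×, serve only for reference.

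The array carries 384 features, most of them cDNAs of enzymes of energy metabolism and the others controls, and each feature is printed as 4 spots. The deposited table of normalized values holds all but 172 of these features. The features it holds are described here and called the listed features, and those 172 the unlisted features. The heart draws most of its ATP from the oxidation of fatty acids and other fuels in mitochondria, so transcripts of these pathways are a large part of what such an array is meant to read. Labeled RNA binds to the printed cDNA that matches it, and the scanner reads the dye left on the spot after washing. The signal keeps its proportion to the RNA only while the printed cDNA has free binding sites and the detector is below its ceiling. The share of a feature, its intensity as a percent of the sum over all listed features of the same array and dye, leaves out the overall brightness and shows whether features keep their proportions when the RNA is raised. Neither the deposited files nor the RefSeq gene table gives a name to a feature number, so that pathways and heart markers could not be looked up, and at most 2 features in each direction are named by number.

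There was 1 array at each concentration. Spots of 1 array are technical replicates, so the SDs given here are over 4 spots or 4 spot sets and hold no error between arrays, and no difference between the arrays was tested. A spot set is 1 spot of every feature. The 4 spots of a feature lie in the same column of the array, 8 rows apart, so that spot set 1 fills rows 1 to 8 and spot set 4 rows 25 to 32.

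Both dyes were brighter on the 50× array by more than the 5-fold step in RNA. The summed intensity of the listed features was 14.2 ± 3.57 times higher at 50× than at 10× in Cy3 and 18.4 ± 1.77 times higher in Cy5 (SD, n = 4 spot sets). In Cy3 the ratio differed between the row bands of the array, with 18.4 in rows 1 to 8, 16.1 in rows 9 to 16, 12.8 in rows 17 to 24 and 10.3 in rows 25 to 32. In Cy5 the 4 bands lay between 16.2 and 20.5, with no such order. No listed spot reached the ceiling of the scanner, and the brightest of them read 59642, in Cy5 at 50×. The choice of the listed features left out genes with an average near saturation. Over all 384 features, 33 spots were at the ceiling in Cy5 at 50× and 1 in Cy3 at 50×. These spots enter the totals over all 384 features used below. The lowest of all 384 features read 62.8% of the median listed feature in Cy5 at 10× and 36.5% in Cy3 at 10×. At 50× it read 6.77% in Cy5 and 6.66% in Cy3. With this lowest feature subtracted in each array and dye, the summed ratio was 41.5 in Cy5 and 18.4 in Cy3, so the excess over 5-fold was larger, and the Cy5 ratio was over 1.5 times the unsubtracted value. Below 50× the summed intensity did not rise in step with the RNA. In Cy5 it was 463671 at 0.1×, 333454 at 1×, 328622 at 5× and 133960 at 10×. In Cy3 it was 78250, 49096, 47066.5 and 99988.2 in that order. The ratios of 50× over 10× can therefore hold differences in brightness between arrays that do not follow the RNA. The cause of these differences was not tested.

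As measured, with no background subtracted, the features stood closer together on the 10× array than on the 50× array, most of all in Cy5. At 10×, Cy5 intensities of the listed features ran from 383 to 1712, with a median of 582, a range of 4.47-fold. At 50× they ran from 1997 to 57414, with a median of 8258, a range of 28.8-fold. In Cy3 they ran from 132 to 1706 at 10× and from 818 to 24664 at 50×, a range of 30.2-fold. The 20 features with the highest shares, which would hold 9.43% of the total if all shares were equal, held 16.9% of Cy5 at 10× and 28.3% at 50×. In Cy3 they held 25.8% at 10× and 25.9% at 50×, a difference smaller than the SD of 1.20 among spot sets at 50×. After subtraction of the lowest feature, the 20 held 27.2% of Cy5 at 10× and 29.3% at 50×, and 31.9% and 26.8% of Cy3. The difference between the arrays in Cy5 was thus smaller after subtraction, and in Cy3 the order of the arrays turned. The range from the lowest to the highest feature turned in both dyes, to 76.9-fold at 10× and 39.5-fold at 50× in Cy5, and 395-fold and 51.5-fold in Cy3. At 10× the lowest listed feature was only 17.5 above the subtracted value in Cy5 and only 4 above it in Cy3. The ratio of the 90th to the 10th percentile of the features did not turn, and after subtraction was 6.06 at 10× and 11.6 at 50× in Cy5 and 9.53 and 14.4 in Cy3.

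The shares were not the same on the arrays. As the mean of both dyes, the share was 1.5-fold or more higher at 50× in 36 listed features (17.0%) and 1.5-fold or more lower in 84 (39.6%). This balance depended on the total. With shares of the sum over all 384 features, 54 listed features were higher and 64 lower, and with each array and dye scaled to its median 49 were higher and 72 lower. On the total of all 384 features, the same limits were passed by 17.7% and 54.4% of all features, and by 8.14% and 84.3% of the unlisted ones. On this scale gains were found mostly among the listed features. The signal at 50× took part in the choice of the listed features, so this contrast is not independent of that choice. The paper drew the genes it analyzed from the metabolic cDNAs, so the unlisted features would also hold the controls. By the paper, these include DNA spots labeled with Cy5 and negative controls, so the contrast is not one between genes alone. In the 106 listed features that were brighter at 0.1×, 1× and 5×, 28 had higher shares at 50× and 23 lower, as shares of the listed total. As shares of the listed total, 20 listed features were higher by 2-fold or more and 57 lower. The log2 ratio of the shares ran from -2.33 to 2.70 in Cy3, with a median of -0.35, and from -2.39 to 1.75 in Cy5, with a median of -0.45. The median was below 0 in both dyes.

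The 4 spots of a feature separated the arrays in many features. In Cy3, all 4 spot shares at 50× were above all 4 at 10× in 32 features (15.1%) and below them in 87 (41.0%). In Cy5 they were above in 18 features (8.49%) and below in 79 (37.3%). Both dyes were separated upwards in 10 features (4.72%) and downwards in 60 (28.3%), and of all 384 features, on their own total, 5.99% and 44.8% were. The spots overlapped between arrays in both dyes in 68 features. In 2 features Cy3 was separated upwards and Cy5 downwards, and in 0 features the reverse.

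The dyes gave the same direction in 168 listed features, of which 56 were higher at 50× and 112 lower. Across features, the log2 change of share in Cy3 and in Cy5 had a Pearson correlation of 0.778 (over all listed features, which share the 2 arrays, the spots and the positions). In the 44 features where the dyes disagreed in direction, the larger of the 2 changes had a median size of 0.60 on the log2 scale, against 1.15 where they agreed. The correlation between dyes was 0.892 after subtraction of the lowest feature and 0.930 after loess normalization of the dyes within each array. Loess removes differences between the dyes that go with intensity, so the 0.930 is in part high by construction. With single spot sets, as measured, the correlation lay between 0.543 and 0.807.

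**Figure D1:**
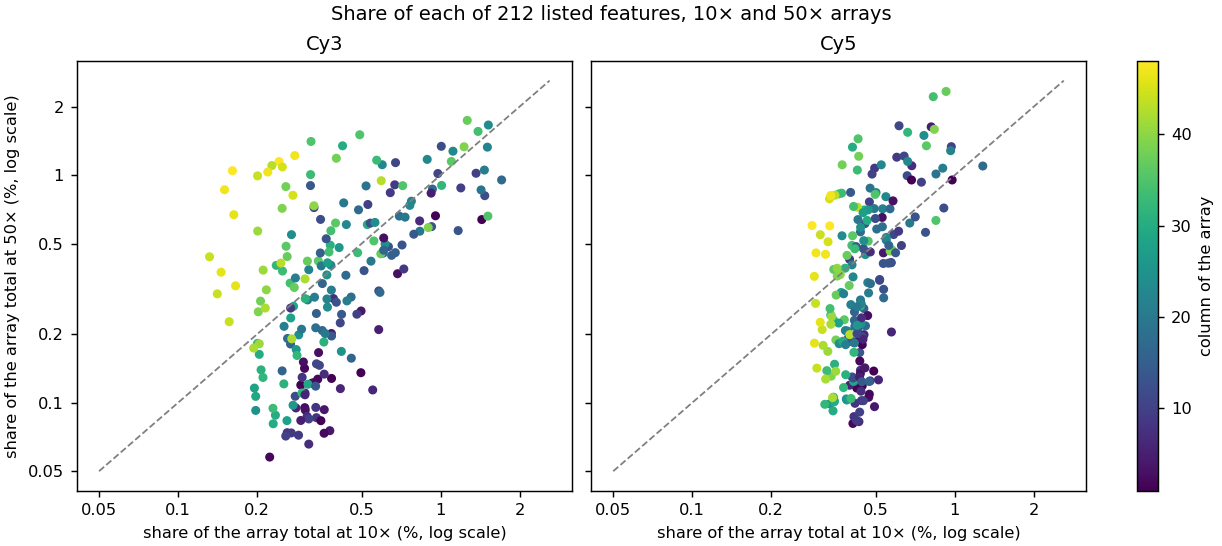
Share of the array total of each of the listed features at 10× (x axis, percent, log scale) and at 50× (y axis, percent, log scale), in Cy3 and Cy5, with each point colored by the column of the array it is printed in and the dashed line marking equal shares. Cy5 shares at 10× span only 0.286% to 1.28%, while at 50× they span 0.0810% to 2.33%, and points from columns 43 to 48 lie above the line in Cy3.

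The order of the features was kept only in part. Spearman's rho of the shares at 10× and 50× was 0.482 in Cy3 and 0.478 in Cy5 over the listed features. Within an array the order was mostly firmer. The dyes of the 10× array had a rho of 0.913 with each other and those of the 50× array 0.929. Pairs of spot sets of the 10× array had a rho of 0.810 to 0.848 in Cy3 and 0.627 to 0.797 in Cy5. On the 50× array the pairs lay between 0.904 and 0.979 in Cy3 and between 0.592 and 0.890 in Cy5. In Cy3 every pair of spot sets of either array was above the value between the arrays, and so was every pair in Cy5. The value between the arrays rests on means of 4 spots, however, and the pairs on single spots. With single spot sets, rho between the arrays was 0.324 to 0.591 in Cy3, below every pair. In Cy5 it was 0.119 to 0.646, and the 0.646 of set 4 was above the lowest pairs of both arrays.

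Against the other 3 arrays the 50× array also kept the order only in part. With the 0.1×, 1× and 5× arrays it had a rho of 0.483 to 0.766 in Cy3 and 0.464 to 0.636 in Cy5. The 10× array had 0.475 to 0.824 with the same 3 arrays in Cy3 and 0.668 to 0.871 in Cy5. In Cy5 each of the 3 correlations of the 50× array was below each of those of the 10× array, and in Cy3 the ranges overlapped. The pair 10× and 50× had the second lowest of 10 pairs in both dyes.

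**Figure D2:**
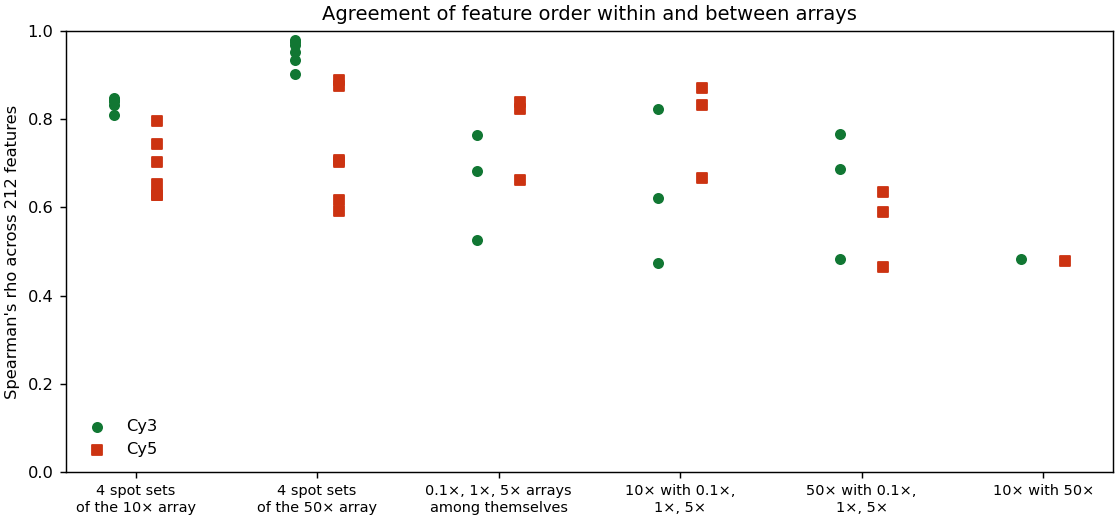
Spearman's rho of feature intensity or share across the listed features (y axis, from 0 to 1), for pairs of spot sets within the 10× and the 50× array and for pairs of arrays, with Cy3 as circles and Cy5 as squares and 1 point for each pair. The points for 10× with 50× lie at 0.482 and 0.478, below every pair of spot sets.

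Ranked by the mean share of both dyes, a feature moved by a median of 40.5 places between the arrays, and 23 features moved by 100 places or more. Between the dyes of 1 array the median difference in rank was 14 places at 10× and 13 at 50×, and 0 features differed by 100 places or more. Of the 53 features with the highest shares at 10×, 29 were among the 53 highest at 50× and 1 was among the 53 lowest. Of the 53 lowest at 10×, 16 were among the 53 lowest at 50× and 10 among the 53 highest. The 20 highest at 10× and the 20 highest at 50× shared 12 features. With the upper 2 spot sets alone they shared 7, and with the lower 2 alone 13.

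The level of each feature was read from the 3 arrays that do not enter the comparison. Across features, the mean log2 share at 0.1×, 1× and 5× had a Spearman correlation with the log2 change from 10× to 50× of 0.302 in Cy3 and 0.435 in Cy5 over the listed features. The 53 features brightest on those 3 arrays had a median change of 0.15 in Cy3 and 0.46 in Cy5. The 53 dimmest had -0.65 and -0.71, the next 53 had -0.38 and -0.89, and the 53 after those -0.39 and -0.47. In Cy5 the change thus did not rise steadily with the level. No background was subtracted here. The lowest of all 384 features read 36.5% (Cy3) and 62.8% (Cy5) of the median listed feature at 10×, against 6.66% and 6.77% at 50×. The relation after subtraction was not tested.

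The change of share tended to rise with the column of the feature on the array in Cy3, and in Cy5 mainly in the upper rows. Across the 48 columns, the log2 change from 10× to 50× had a Spearman correlation with column number of 0.671 in Cy3 and 0.345 in Cy5 over the listed features. In single spot sets it was 0.587 to 0.699 in Cy3. In Cy5 it was 0.550 and 0.338 in sets 1 and 2, and 0.043 and 0.102 in sets 3 and 4. Over all 384 features it was 0.340 in Cy3 and 0.020 in Cy5. In sets 3 and 4 the Cy5 ratio of 50× over 10× still differed between columns, with no steady rise. Its median in set 3 was 6.38 in columns 1 to 6, 29.5 in columns 19 to 24 and 12.8 in columns 43 to 48. Set 4 had 5.50, 18.3 and 6.69. In columns 1 to 6, the Cy3 share was lower at 50× in 29 of 29 listed features, with a median log2 change of -1.47. In columns 43 to 48 it was higher in 17 of 17, with a median of 2.04. Between these ends, the medians of the bands of 6 columns went from -0.91 in columns 7 to 12 to 0.43 in columns 37 to 42, with columns 25 to 30 lower than their neighbors at -0.72. In Cy5 the change was lower in 25 of 29 features of columns 1 to 6, with a median of -1.51, and higher in 11 of 17 features of columns 43 to 48, with a median of 0.62. The 17 features of columns 43 to 48 were dim in Cy3 at 10×. Their median was 201, where the lowest feature of the whole array read 128. They may have been listed mainly through their signal at 50×, which would favor gains among them. This was not tested.

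**Figure D3:**
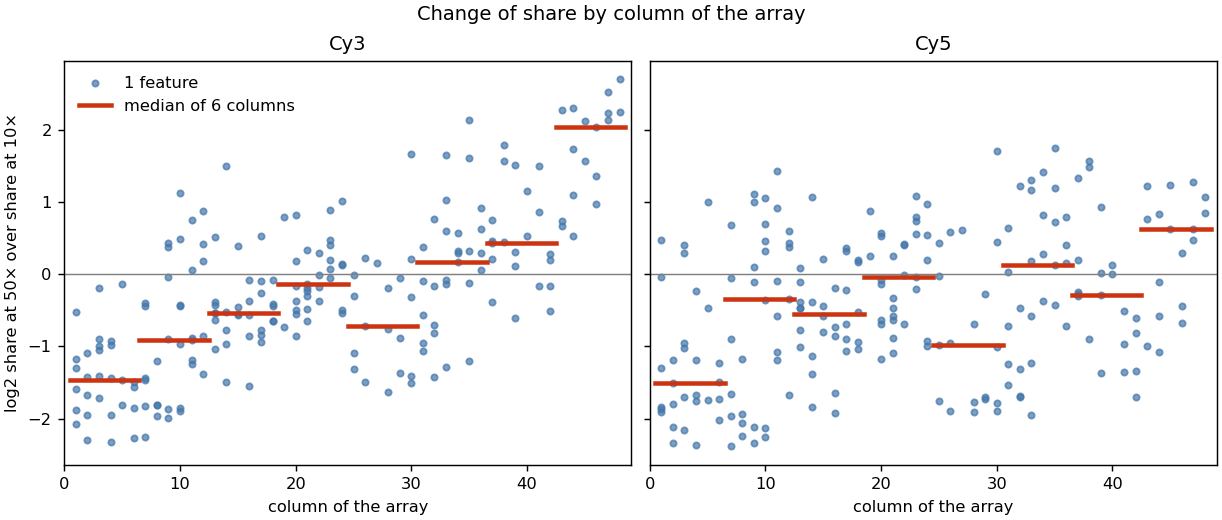
Log2 ratio of the share at 50× over the share at 10× (y axis) by the column of the array (x axis, columns 1 to 48) in Cy3 and Cy5, with 1 point for each of the listed features and a bar for the median of each band of 6 columns. In Cy3 the bars go from -1.47 in the first band to 2.04 in the last.

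Among the listed features, the arrays sloped in opposite directions along the columns. At 10×, the intensity of the listed features had a Spearman correlation with column number of -0.36 in Cy3 and -0.55 in Cy5, and at 50× of 0.39 and 0.17. Over all 384 features the correlation at 50× was 0.03 in Cy3 and -0.12 in Cy5. Among the unlisted features it was -0.69 and -0.76 at 10×, and -0.0013 and -0.18 at 50×, so that the slope at 50× was nearly flat in Cy3 and had the sign of the 10× array in Cy5. The median Cy3 intensity was 360 in columns 1 to 6 and 201 in columns 43 to 48 at 10×, and 1743 and 12224 at 50×. The Cy3 ratio of 50× over 10×, with no background subtracted, therefore had a median of 5.12 in columns 1 to 6 and of 58.3 in columns 43 to 48. In Cy5 the medians were 6.45 and 28.3. The 5×, 1× and 0.1× arrays had Cy5 correlations of -0.47, -0.43 and -0.38, with the sign of the 10× array, and Cy3 correlations of -0.19, 0.12 and -0.02. The change from 5× to 10× had a correlation with column of -0.49 in Cy3 and -0.50 in Cy5, so a change along the columns was not particular to the step to 50×, and there it had the other sign. Among the unlisted features the change from 10× to 50× had a correlation with column of 0.366 in Cy3 and 0.0408 in Cy5. Different features are printed in different columns, so that the column and the set of features in it cannot be told apart from these correlations alone.

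The 4 spots of a feature share its column and differ in row, and they allow the place to be read with the features held the same. In columns 43 to 48, the median Cy3 ratio of 50× over 10× was 95.7 in rows 1 to 8, 73.6 in rows 9 to 16, 33.6 in rows 17 to 24 and 16.7 in rows 25 to 32, all from the same 17 features. In columns 1 to 6 the 4 values were 5.24, 6.24, 4.71 and 4.22. The row bands thus lay close together at the edge with the low ratio and far apart at the edge with the high ratio.

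In Cy5 the row bands crossed. In columns 19 to 24 the ratio was 11.6 and 7.97 in the upper 2 spot sets and 29.5 and 18.3 in the lower 2. In columns 43 to 48 it was 58.2 and 28.3 in the upper sets and 12.8 and 6.69 in the lower. This lay mainly in the 50× array. There the Cy5 intensity of the lower 2 spots of a feature was, as a median, 2.92 times that of its upper 2 in columns 19 to 24 and 0.305 times in columns 43 to 48. On the 10× array the same ratio lay between 1.01 and 1.20 in every band of columns. In Cy3 at 50× it was 0.369 in columns 43 to 48 and between 0.608 and 0.916 in all other bands. The median CV among the 4 spots was 33.0% for Cy5 at 50×, against 14.7% for Cy3 at 50×, 14.8% for Cy5 at 10× and 17.7% for Cy3 at 10×.

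**Figure D4:**
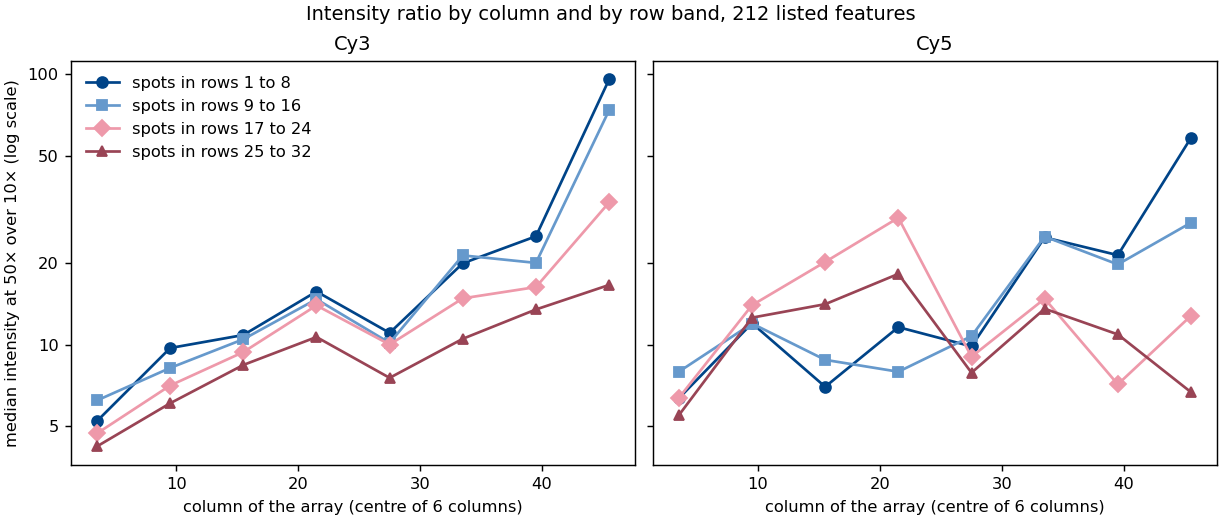
Median ratio of intensity at 50× over 10× (y axis, log scale) of the listed features in each band of 6 columns (x axis, center of the band), with 1 line for each of the 4 row bands, in Cy3 and Cy5. The Cy3 lines fan out to 95.7 and 16.7 at the last band, and the Cy5 lines of the upper and lower rows cross between the bands at columns 19 to 24 and 31 to 36.

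The correlation of the change between spot sets showed the same division. In Cy3, the log2 ratio of 50× over 10× had a Pearson correlation of 0.877 to 0.921 between any 2 spot sets. In Cy5 it was 0.807 between sets 1 and 2 and 0.780 between sets 3 and 4, and 0.453 to 0.619 between an upper and a lower set. The rho of 10× with 50× was 0.324 to 0.591 in the single spot sets in Cy3 and 0.119 to 0.646 in Cy5, lowest in rows 1 to 8 and highest in rows 25 to 32 in both dyes. Features in odd rows within a spot set had a median change of -0.08 in Cy3 and -0.22 in Cy5, and those in even rows -0.56 and -0.66, smaller differences than those between columns.

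The order of the features was better kept within bands of columns than over the whole array. Inside the 8 bands of 6 columns, with 17 to 34 features each, rho of 10× with 50× was 0.578 to 0.846 in Cy3 and 0.444 to 0.886 in Cy5. It was above the value over all columns in 8 of 8 bands in Cy3 and in 7 of 8 in Cy5, the exception being columns 43 to 48. With a line of log2 intensity on column number removed from each array and dye, rho over all listed features was 0.757 in Cy3 and 0.723 in Cy5, against 0.482 and 0.478 as measured. With the median of each band removed it was 0.745 and 0.710. This removal takes away any difference between the features of different columns as well.

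Features still differed after the line or the band medians were removed. With the line removed, the share was 1.5-fold or more higher at 50× in 35 listed features and lower in 81, against 36 and 84 as measured. With the band medians removed, 28 were higher and 78 lower. Neither removal takes away differences between the rows of a column, which were large in Cy5 at 50×. The SD of the log2 change across features was 0.78 in Cy3 with the line removed and 1.08 as measured, and 0.97 and 1.03 in Cy5. The dyes had a correlation of 0.794 with the line removed and 0.814 with the band medians removed, against 0.778 as measured. Within single bands it was 0.536 to 0.945.

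The balance of the dyes also differed between the arrays. The log2 ratio of the Cy5 share over the Cy3 share ran from -0.99 to 1.16 at 10× and from -1.44 to 1.06 at 50×. The ratio of a feature at 10× had a Spearman correlation with its ratio at 50× of -0.09 over the listed features, and the sign was the same in 114 features. At 10× the ratio had a correlation of -0.91 with the mean log2 share of the dyes, so that bright features had larger shares in Cy3 and dim ones in Cy5. Both measures are built from the same shares, so a narrower spread in Cy5 than in Cy3 gives a negative correlation. At 10× the listed features ran from 383 to 1712 in Cy5 and from 132 to 1706 in Cy3. A relation to the level apart from this spread was not tested. At 50× the correlation with the mean log2 share was -0.15. The correlation of the ratio with column number was -0.61 at 50×, against 0.18 at 10×.

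Among features whose 4 spots were separated the same way in both dyes, the largest gains by the mean of the dyes were those of features 331 and 30. The next in order was close behind, with a mean log2 change of 1.683 against 1.685 for feature 30. By the ratio of the mean shares another such feature, at 3.27-fold, stood before feature 30, at 3.22-fold. Feature 331 lies in column 43. Its Cy3 spots read 183, 222, 245 and 260 at 10× and 20644, 16550, 14348 and 10932 at 50×, from the uppermost spot to the lowest. Its Cy5 spots read 421, 465, 512 and 475 at 10× and 27718, 28223, 14434 and 10002 at 50×. Every spot at 50× was brighter than every spot at 10× by far, and at 50× the lower spots were the dimmer ones in both dyes. The share was 0.228% ± 0.034 at 10× and 1.10% ± 0.287 at 50× in Cy3 (SD, n = 4 spots), and 0.350% ± 0.028 and 0.816% ± 0.376 in Cy5. In rank it went from 186 to 19 in Cy3 and from 179 to 36 in Cy5. With the band medians removed, its log2 change was 0.16 in Cy3 and 0.38 in Cy5, against 2.27 and 1.22 as measured. With the line on column removed, its log2 change was 1.14 and 0.66. Of the 15 other listed features within 2 columns of it, 12 gained in Cy3, with a median log2 change of 0.74, and 4 gained in Cy5, with a median of -0.61, so that its nearest neighbors gained with it in Cy3 and mostly did not in Cy5.

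Feature 30 lies in column 30, in a stretch where most shares were lower at 50×. Its Cy3 spots read 236, 484, 358 and 614 at 10× and 20056, 21963, 17667 and 16593 at 50×. Its Cy5 spots read 456, 661, 464 and 603 at 10× and 24696, 41717, 32388 and 31935 at 50×. All 4 spots gained in both dyes, with no order from the uppermost to the lowest. The share went from 0.423% ± 0.163 to 1.34% ± 0.170 in Cy3 (SD, n = 4 spots), and from 0.408% ± 0.076 to 1.33% ± 0.283 in Cy5, 3.18-fold and 3.25-fold. Of the 20 other listed features within 2 columns of it, 3 gained in Cy3 and 4 in Cy5, with median log2 changes of -0.73 and -1.27. Its log2 change with the band medians removed was 2.37 in Cy3 and 2.23 in Cy5, larger than the 1.67 and 1.70 as measured. This was the opposite of feature 331, but it held for the band medians only. With the line on column removed, the change of feature 30 was 1.26 and 1.49, smaller than as measured, as in feature 331.

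The largest losses were those of features 196 and 151, in columns 4 and 7. The Cy3 spots of feature 196 read 463, 353, 317 and 380 at 10× and 1144, 1219, 1047 and 864 at 50×. Its Cy5 spots read 852, 544, 552 and 701 at 10× and 2208, 2913, 2358 and 1988 at 50×. The intensity was higher at 50× in every spot, and by less than the 5-fold step in RNA on average, with no background subtracted. In Cy5 the lowest of all features read 365.5 at 10× and 558.75 at 50×. With these values subtracted, the mean rise of feature 196 in Cy5 was above 5-fold. In Cy3, where the lowest read 127.75 and 346, it stayed below 5-fold. The summed intensity of the listed features was 14.2 times higher in Cy3 and 18.4 times higher in Cy5. Relative to these sums, the share of feature 196 was 5.02-fold lower in Cy3 and 5.15-fold lower in Cy5. In rank it went from 92 to 205 in Cy3 and from 59 to 206 in Cy5. The 22 other listed features within 2 columns of it had median log2 changes of -1.45 and -1.50, and 0 of them gained in Cy3 and 3 in Cy5.

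Feature 151 read 227, 382, 292 and 357 in Cy3 at 10× and 910, 950, 942 and 929 at 50×. In Cy5 it read 641, 496, 561 and 613 at 10× and 1901, 1988, 2390 and 1854 at 50×. The 4 spots lay close together at 50×, and the share was 0.0658% ± 0.0012 in Cy3 (SD, n = 4 spots), the second lowest of all listed features. Its share was 4.78-fold lower at 50× in Cy3 and 5.23-fold lower in Cy5. With the band medians removed, the log2 changes were -1.78 in Cy3 and -2.58 in Cy5, against -2.26 and -2.39 as measured, whereas those of feature 196 were -0.79 and -1.09, against -2.33 and -2.36. The features fall in different bands, columns 7 to 12 and 1 to 6. With the line on column removed they lay close together, at -1.38 and -1.99 for feature 151 and -1.28 and -1.88 for feature 196. The 22 other listed features within 2 columns of feature 151 had median log2 changes of -1.48 in Cy3 and -1.36 in Cy5, of which 2 and 5 gained. Features 151 and 196 both lay below the median of their nearest neighbors in both dyes, which largely follows from their choice as the largest losses.

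**Figure D5:**
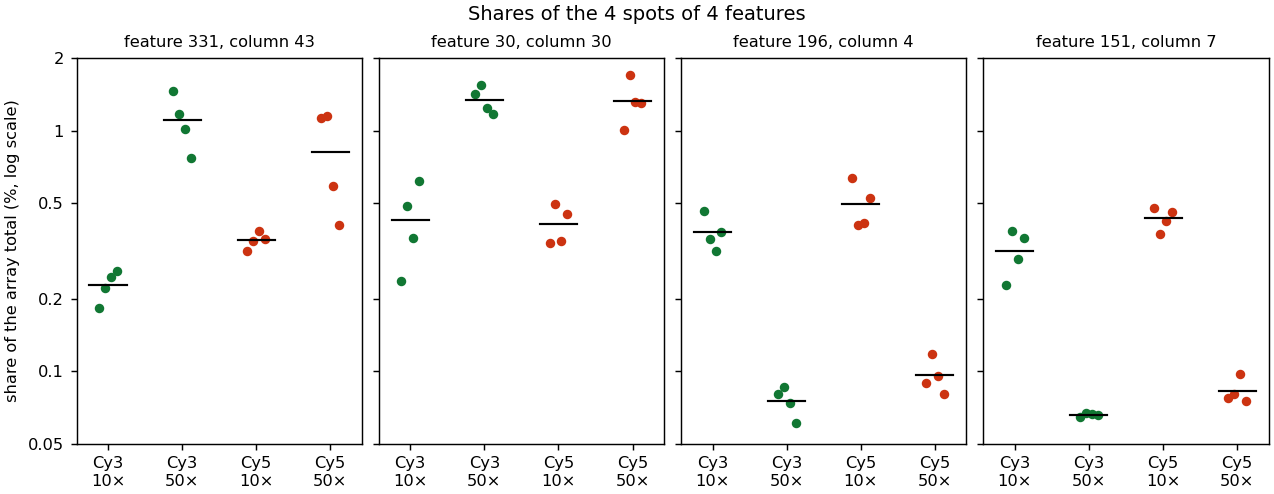
Share of the array total (y axis, percent, log scale) of each of the 4 spots of features 331, 30, 196 and 151 at 10× and 50×, in Cy3 (green) and Cy5 (red), with 1 point for each spot, from the uppermost at the left to the lowest at the right, and a black line for the mean. The spots of each dye do not overlap between the arrays, which is how these features were chosen.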

How the data were processed

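Spot fluorescence was measured by the authors with a ScanArray Express scanner and Imagene (v5). The deposited spot table holds the intensity of 1536 spots for Cy3 and Cy5 on 5 arrays, with no background value and no normalization. It is the same in all 5 array records, and its columns are named by concentration. The authors also deposited sum-normalized intensity for the listed features. Shares averaged over the dyes and scaled to the total of this table came within 2 units of it for every listed feature at 10× and at 50×, and the table was used as an alternative. Its scale is linear and it keeps no difference in total between arrays.

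The mean of the 4 spots of a feature was divided by the sum over the listed features in each array and dye, and log2 ratios of 50× over 10× were taken. Spot shares use the same sum. A limit of 1.5-fold was used. The 10× and 50× arrays were grouped by title, and with 1 array a side no test was made, only description across features and spots. Features were named by rule: of those whose spots separate the arrays the same way in both dyes, the 2 largest gains and losses. The features, limits and settings were chosen with earlier results of these data known. The number of arrays, 1 a side, limits the precision. Python 3.11.15 was used with scipy 1.17.1, pandas 2.3.3 and numpy 2.4.6. Normexp (offset 50) and loess (span 0.3, 4 iterations) used limma 3.58.1 in R 4.3.3. Simulated data were also run, with 4-fold changes of share between 10× and 50×. There 30 of 30 gains and 30 of 30 losses passed 1.5-fold, with 0 of 152 others, after centering on the features known to be unchanged. The arrays were not centered in this way. The simulated spots varied independently, with no change along columns or rows between the arrays, so these counts do not carry over to the arrays. How often features of unchanged share pass this limit on the arrays themselves was not tested.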

Additional observations from a re-analysis of the deposited data

How the results depend on the processing

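The alternatives below are grouped by setting, and the cause of each movement was not tested. Where one that was run is not named beside a result, a count stayed within 1.5 times and another value within 1 SD over spot sets. No paired analysis was possible because there was 1 array a side. The limits are the lack of replicate arrays and of a local background, and at 10× a lowest feature at 36.5% (Cy3) and 62.8% (Cy5) of the median listed one.

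With the median of the spots, the median CV was 13.3% in Cy3 and 10.3% in Cy5 at 10×, and 22.5% in Cy5 at 50×. With shares of all 384 features, 54 were higher and 64 lower at 50×, 28 features had separate spots upwards in Cy5, and by construction the highest 20 held 14.3% and 17.0% of Cy3 at 10× and 50×, 9.39% and 18.9% of Cy5, and 11.8% and 17.5% of the mean of the dyes. Scaled to the median, 49 were higher and 72 lower, and 31 features had separate spots upwards in Cy5.

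With the lowest feature subtracted, the summed ratio of 50× over 10× was 18.4 in Cy3 and 41.5 in Cy5, and the median ratio 15.7 and 31.3, against 11.2 and 13.5 as measured. Spots were separate downwards in Cy5 in 43 features, against 79. The dyes had a correlation of 0.892, against 0.910 with normexp and 0.930 with loess, the last in part by construction. The highest 20 held 31.9%, 27.2% and 29.4% at 10× (Cy3, Cy5 and mean), and the CV at 10× was 28.7% in Cy3 and 41.8% in Cy5.

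In the 106 features brighter at 0.1× to 5×, 23 had lower and 28 higher shares at 50×, 85 the same direction in both dyes, and 38 (Cy3) and 17 (Cy5) separate spots downwards. A limit of 2-fold left 20 gains. The highest 10 shared 3 features between arrays and held 14.8% and 14.5% of Cy3 at 10× and 50×, 9.45% and 16.6% of Cy5, and 12.04% and 14.9% of the mean. The highest 50 shared 29 and held 47.4% and 52.3%, 34.2% and 53.6%, and 40.6% and 52.2%.

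The next settings were chosen after seeing the data. The rank correlation of 10× with 50× was 0.757 (Cy3), 0.723 (Cy5) and 0.765 (mean) with the line on column removed, and 0.745, 0.710 and 0.754 with the band medians removed, against 0.505 for the mean as measured. Without columns 1 to 6 and 43 to 48 it was 0.693 in Cy3 and 0.692 for the mean. With the band medians removed, the highest 20 shared 8 features. With the upper 2 spot sets it was 0.246 in Cy5 and the highest 20 shared 7. With the lower 2 the dyes had a correlation of 0.640.

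With 1 spot set left out at a time, the CV was 14.6% to 16.9% (Cy3, 10×), 10.2% to 15.6% (Cy5, 10×) and 25.3% to 35.0% (Cy5, 50×), the median Cy5 ratio 13.2 to 14.5, and features with separate spots upwards 36 to 51 in Cy3 and 20 to 31 in Cy5, as 3 spots separate more easily than 4. The counts of 51 and 31 were those without spot set 4.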
